A study of Rattus norvegicus with 10 samples.

Results

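Immediate early genes are described here in rat pancreatic islets that had received an adenovirus: the MAP kinase phosphatase gene Dusp1 and the transcription factor genes Fosl1, Egr1, Fos and Junb. The tested islets received a virus that expresses hamster Nkx6.1, a homeodomain protein of the β cell nucleus, from the CMV promoter, and the control islets received the same kind of virus carrying β-galactosidase (bGAL). Each group held 5 samples from independent isolations out of male Sprague-Dawley rats of about 250 g, cultured in pools of about 200 islets at 8 mM glucose. All 10 samples therefore carried an adenovirus, for 18 h, and were cultured for a further 60 h before RNA was taken. The islets were whole and mixed in cell type, so a larger share of expressing cells and more RNA per cell cannot be told apart. The CMV promoter is not specific to β cells.

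The genes were chosen by their differences in this same contrast, the Nkx6.1 samples against the bGAL samples, in which Dusp1 had been past the threshold. Differences of the members between the 2 groups are therefore given as a description, with no test. Probes were taken by gene symbol and kept if they had a value in at least 3 samples of each group. This left 3 probes, 1 each for Dusp1, Fosl1 and Egr1 (3 of the 5 genes), of the 18546 probes of the array that met the same minimum. Taken by gene, as the mean of its probes, 9974 named genes met it. The 3 member probes had values in all 10 samples. Junb lay just outside the minimum, with values in 4 Nkx6.1 samples and 2 bGAL samples, and Fos was not analysed here.

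Immediate early genes are transcribed within minutes of a stimulus, from factors that already sit in the cell. MAP kinases phosphorylate ELK factors bound with SRF at CArG boxes, and protein kinase A and other kinases phosphorylate CREB at cAMP response elements. FOS and JUN family proteins then pair as AP-1, EGR1 binds GC-rich sites, and DUSP1 removes the phosphates from JNK, p38 and ERK and so closes the loop. In β cells, glucose and agents that raise cAMP are known inducers of several of these genes.

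The windows around the annotated starts of Dusp1, Fosl1, Egr1 and Junb are shown because such stimuli are known to act through sites near the starts of early genes. Each runs from 250 bases before the start to 50 after it, from RefSeq on GRCr8, at chr10:17184603-17184902 (plus strand) for Dusp1, chr1:212183635-212183934 (plus strand) for Fosl1, chr18:26736828-26737127 (plus strand) for Egr1 and chr19:40080876-40081175 (plus strand) for Junb. Capitals mark CArG boxes and the core site of the cAMP response element (TGACG, on either strand).
Dusp1: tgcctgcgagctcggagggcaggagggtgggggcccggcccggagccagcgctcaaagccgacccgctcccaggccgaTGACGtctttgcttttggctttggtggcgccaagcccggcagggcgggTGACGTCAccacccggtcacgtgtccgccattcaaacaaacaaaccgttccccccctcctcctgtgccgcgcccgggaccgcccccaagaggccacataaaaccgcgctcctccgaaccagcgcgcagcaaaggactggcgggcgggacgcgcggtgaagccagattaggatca
Fosl1: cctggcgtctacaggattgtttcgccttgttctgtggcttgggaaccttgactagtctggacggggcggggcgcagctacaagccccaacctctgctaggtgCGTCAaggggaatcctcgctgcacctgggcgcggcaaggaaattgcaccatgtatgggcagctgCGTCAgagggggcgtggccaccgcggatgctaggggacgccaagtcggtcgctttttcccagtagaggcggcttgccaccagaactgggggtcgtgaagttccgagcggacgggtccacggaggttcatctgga
Egr1: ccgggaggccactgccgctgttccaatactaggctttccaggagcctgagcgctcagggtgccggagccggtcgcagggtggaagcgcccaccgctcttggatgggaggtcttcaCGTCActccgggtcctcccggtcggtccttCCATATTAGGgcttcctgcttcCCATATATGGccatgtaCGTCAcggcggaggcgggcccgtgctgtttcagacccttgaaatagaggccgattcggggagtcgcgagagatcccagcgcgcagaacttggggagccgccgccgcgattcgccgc
Junb: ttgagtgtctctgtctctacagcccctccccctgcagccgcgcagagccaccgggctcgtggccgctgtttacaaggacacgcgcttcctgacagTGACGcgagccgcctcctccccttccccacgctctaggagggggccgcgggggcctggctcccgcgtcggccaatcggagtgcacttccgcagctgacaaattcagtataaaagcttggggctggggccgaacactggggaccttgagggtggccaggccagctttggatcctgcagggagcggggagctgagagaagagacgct

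Dusp1 held the whole cAMP response element, TGACGTCA, 124 bases before its start, and a core site 172 bases before it. Egr1 held 2 CArG boxes, 105 and 83 bases before its start, with core sites at 135 and 66 bases. Fosl1 held core sites at 148 and 84 bases and no CArG box in this window, and Junb a single core site at 155 bases. All 4 windows thus held a core site, which 21.2% of the 33469 windows of the same length in the table hold, while the whole element stood in 1.83% and a CArG box in 1.64%. Each whole element also counts as 2 core sites, and both strands were searched. The 4 windows held no AP-1 site (TGANTCA, in 7.33% of all windows), no EGR site (GCGNGGGCG, 4.98%) and no TTAATTA, a sequence that homeodomain proteins are known to bind (3.02%). TATAAA was found in the Junb window, as in 14.2% of all. These matches are letters in a window and not sites shown to be bound. Windows were available for 43 of the other early response genes tested, and of these 19 held a core site, 6 the whole element and 3 a CArG box.

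Values are log2 ratios of the 2 dye channels, centred by the authors on each probe's median over the 10 samples, so that the level of a gene cannot be read and genes cannot be ranked by abundance. Because of the centring, the middle 2 values of a probe are mirror images around 0. The sign was taken as islet RNA over the common rat reference RNA. This is likely, since the study's design sets Cy5 islet RNA against Cy3 reference RNA, but the direction is not stated. The arrays also differed technically. On bGAL replicates 1, 2, 3 and 5 and Nkx6.1 replicate 1, called array set 1, between 27.3% and 32.5% of probes had no value, against 0.816% to 9.13% on array set 2, which held Nkx6.1 replicates 2 to 5 and bGAL replicate 4. Nkx6.1 replicate 2 had the widest spread, with an interquartile range of 1.09 against 0.35 to 0.58 elsewhere. Set and group are thus largely aligned, and the within-set values are given for the member genes, for each list and for each other named gene where they differ from the pooled value by over 1.5 times. Values without 1 sample are given on the same terms for the named genes.

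Dusp1 was higher in every islet sample that received Nkx6.1. Its centred log2 ratio was 0.47, 0.78, 0.78, 0.83 and 0.44 in Nkx6.1 replicates 1 to 5, against −0.67, −0.50, −0.44, −0.51 and −0.50 in bGAL replicates 1 to 5. The groups were separated by a gap of 0.87, and the values within each group lay close together. The group means were 0.66 ± 0.19 with Nkx6.1 and −0.52 ± 0.087 with bGAL (SD, n = 5 each), a log2 difference of 1.18 ± 0.15 (limma estimate ± SE) or 2.27-fold. The pooled SD of 0.148 was smaller than that of all but 1.65% of the probes with 10 values, whose median was 0.56. A larger rise was found for 3.50% of the probes. A small SD and a large rise both favour passing the threshold, so nothing is read from these ranks.

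Within array set 1, the Nkx6.1 sample stood at 0.47 and the 4 bGAL samples averaged −0.53, a difference of 0.99. Within array set 2, the 4 Nkx6.1 samples averaged 0.71 and the bGAL sample stood at −0.51, a difference of 1.21. Because the groups did not overlap in Dusp1, this order would hold in any split of the samples and is no separate support. With the array set as a term in the fit, the difference was 1.10.

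Fosl1, which encodes the FOS family protein FRA-1, a partner of JUN proteins in AP-1, was also higher with Nkx6.1, but less evenly. Its values were 0.02, 0.47, 0.90, 0.64 and 0.73 in Nkx6.1 replicates 1 to 5, against −0.29, −0.28, −0.02, −0.27 and −0.17 in bGAL replicates 1 to 5. The groups did not overlap, though Nkx6.1 replicate 1 and bGAL replicate 3 were only 0.042 apart. The means were 0.55 ± 0.34 with Nkx6.1 and −0.21 ± 0.11 with bGAL (SD, n = 5 each), a log2 difference of 0.76 ± 0.19 (SE) or 1.69-fold. In array set 1, which holds that 1 Nkx6.1 sample, the difference was 0.21, while in array set 2 it was 0.95. With the array set as a term in the fit, it was 0.58.

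Egr1, a zinc finger transcription factor induced through the MAP kinase and SRF route, had overlapping groups. It stood at 0.30, 1.23, 0.04, −0.04 and 0.47 in Nkx6.1 replicates 1 to 5, against −0.26, −0.30, 0.13, −0.10 and −0.37 in bGAL replicates 1 to 5. Of the Nkx6.1 samples, 3 exceeded the highest bGAL sample and the other 2 lay between the bGAL values. The means were 0.40 ± 0.51 with Nkx6.1 and −0.18 ± 0.20 with bGAL (SD, n = 5 each), a log2 difference of 0.58 ± 0.25 (SE) or 1.49-fold. Replicate 2, the array with the widest spread, held the highest Egr1 value, and without it the difference was 0.37. The within-set differences were 0.50 in set 1 and 0.53 in set 2, and 0.51 with the array set as a term.

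Junb, an AP-1 partner known to oppose JUN at some genes, had too few values for the comparison. It stood at 0.32, −0.65, −0.36 and −1.01 in Nkx6.1 replicates 2 to 5 and at −0.70 and 0.21 in bGAL replicates 4 and 5. The 2 bGAL values lay within the range of the 4 Nkx6.1 values.

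**Figure D1:**
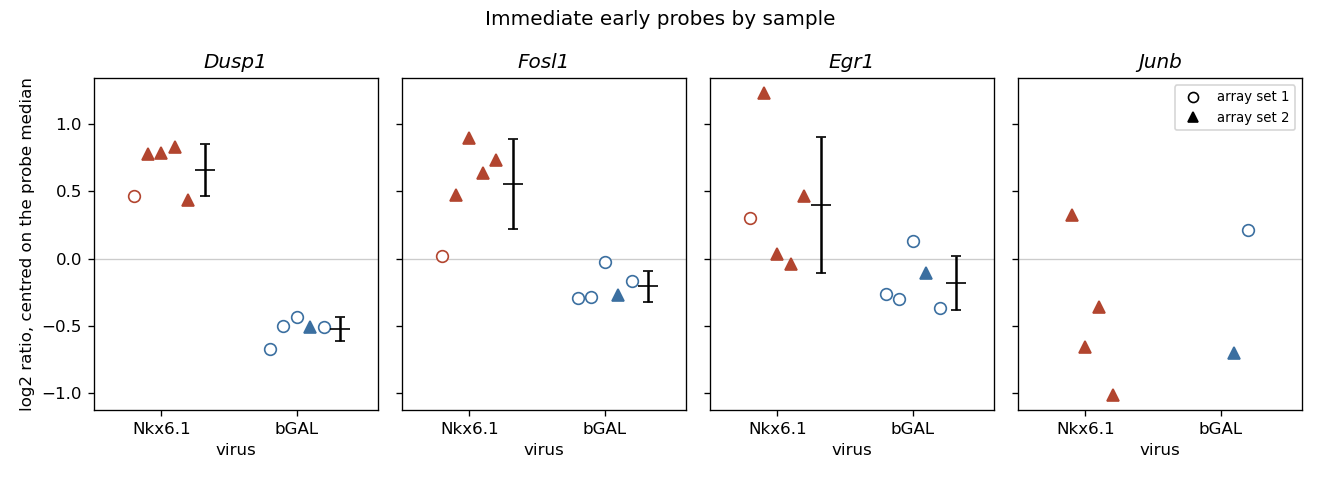
Centred log2 ratio of each probe (vertical axis) in each Nkx6.1 sample (red, left) and bGAL sample (blue, right), with open circles for array set 1, filled triangles for array set 2, and mean ± SD for probes with 5 values per group. Dusp1 is separated by 0.87 between the groups, Fosl1 by 0.042, Egr1 overlaps, and Junb has 4 and 2 values.

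Of the 3 member probes, 1 (Dusp1) was past limma's adjusted p threshold of 0.05 over all probes, where 0.0647% of the 18546 probes were called higher. For 2 of the 3, every Nkx6.1 sample lay above every bGAL sample, as for 1.69% of the 17744 probes with 10 values. Since the contrast chose the members, nothing is read from these shares. Dusp1 was past the threshold in 3 of the 10 fits that left out 1 sample, those without Nkx6.1 replicate 1 or 2 or bGAL replicate 4. It was not past it without Nkx6.1 replicate 3, 4 or 5 or bGAL replicate 1, 2, 3 or 5, although its difference stayed between 1.14 and 1.24 in all 10. It was also not past it with the array set as a term. With array weights, which count variable arrays for less, Dusp1 and Fosl1 both were, in a fit that called 2.46% of all probes higher.

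**Figure D2:**
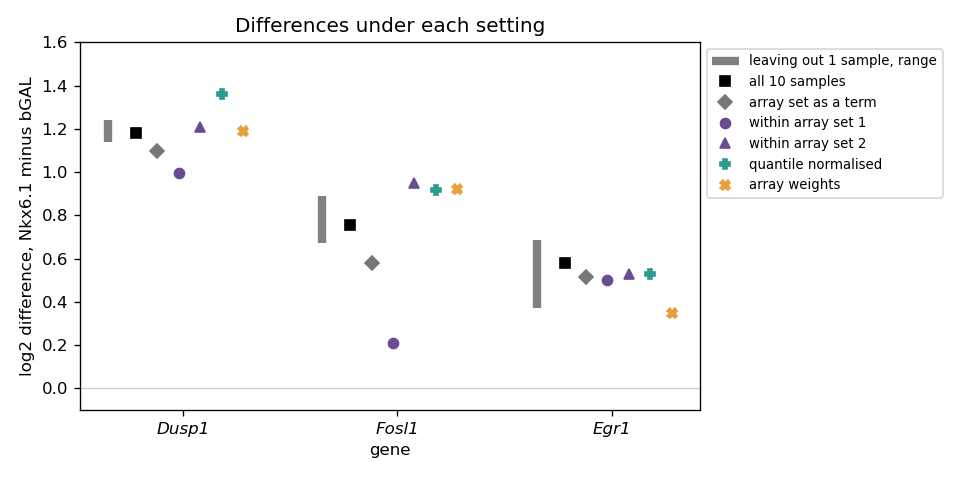
Log2 difference, Nkx6.1 minus bGAL (vertical axis), for Dusp1, Fosl1 and Egr1 with all 10 samples, under 5 other settings, and as the range over leaving out 1 sample (grey bar). All values are above 0, with the widest spread for Fosl1, from 0.21 within array set 1 to 0.95 within array set 2.

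The sample profiles nearest to that of Dusp1 were found by the root mean square difference over the 10 samples, among 9614 other genes with 10 values. They belonged to F11r, a junctional adhesion molecule (0.23 on the log2 scale), Kif22, a chromosome-associated kinesin (0.25), Dbi, an acyl-CoA-binding protein (0.27), Ttk, a kinase of the spindle checkpoint (0.27), and Cspg4, a membrane proteoglycan (0.28). In each of these 5 genes the groups were fully separated, which follows from the way they were found. Fosl1 was 0.31 from Dusp1, with 18 genes nearer, and Egr1 was 0.48 from it, with 310 genes nearer.

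**Figure D3:**
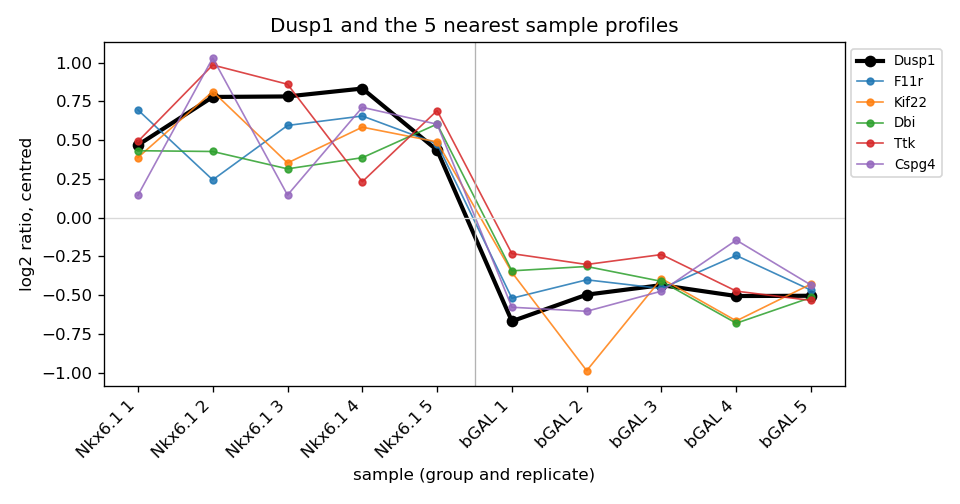
Centred log2 ratio (vertical axis) of Dusp1 (black) and the 5 genes with the nearest profiles (colours) in each Nkx6.1 sample (left) and bGAL sample (right). All 6 profiles are above 0 in the Nkx6.1 samples and below 0 in the bGAL samples.

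The other genes of the pathway were taken in lists. These were tested gene by gene among 9974 genes, of which 0.110% were called higher and 0.0401% lower at a limma adjusted p under 0.05. Of the 118 list genes tested, 0 were called by limma in either direction, and 20 had an unadjusted p under 0.05, 15 higher and 5 lower. Over all genes the median log2 difference was −0.052, with 45.5% of genes higher and 962 at an unadjusted p under 0.05. Of these 962, 453 were higher and 509 lower.

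Upstream of the early genes, 22 genes of the MAP kinase cascade had a median log2 difference of −0.21, with 7 higher and 15 lower. Taken by array set, this median was 0 in set 1 and −0.25 in set 2. Of the 22 genes, 6 had a floored probe, which repeats the same value in 3 or more samples. Map2k6, a kinase that activates p38, had the smallest p. It lay between −0.83 and −0.09 in the Nkx6.1 samples and between 0.09 and 1.25 in the bGAL samples, without overlap. The difference on the log2 scale was −0.92 ± 0.26 (SE, limma adjusted p = 0.34), with −1.64 in array set 2. Mapk9, which encodes JNK2, differed by −0.91 (limma adjusted p = 0.39), with −0.84 and −0.97 at its 2 probes, of which 1 had floored values, and with −0.59 and −0.41 within array sets 1 and 2. Mapk13, a p38 kinase gene, differed by 1.11 (limma adjusted p = 0.37), from 4 Nkx6.1 samples between 0.78 and 1.59. The other Nkx6.1 sample and 4 of the bGAL samples shared a single repeated value of −0.20. Such a repeated value, called the floor here, was taken as a limit of measurement rather than a measured ratio. That reading was not tested, and in some genes other samples lay below the repeated value. The Mapk13 difference was therefore 0 in array set 1 and 1.09 in array set 2.

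Among 8 factors that bind early gene promoters the median was 0.099 (0 in array set 1, 0.15 in array set 2), with 5 higher and 3 lower. Of the 8, 4 had a floored probe. Stat3, which acts behind cytokine receptors, differed by 0.74 ± 0.40 (SE, limma adjusted p = 0.55), by 0.48 without Nkx6.1 replicate 2 and by 1.19 in array set 2. The NF-κB subunit gene Rela differed by −0.59 ± 0.29 (SE, limma adjusted p = 0.54), with −1.35 and −0.37 in array sets 1 and 2. Elk3, an ETS factor that pairs with SRF, stood at 0, 2.63, 12.9, 13.0 and 9.43 in Nkx6.1 replicates 1 to 5, and at 0 in bGAL replicates 1, 2, 3 and 5 with −0.68 in bGAL replicate 4 (limma adjusted p = 0.39). All its values in array set 1 were at the floor, so the fitted difference of 7.72 is no measured fold.

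Of 9 AP-1 partners tested, 7 were higher and 2 lower, with a median log2 difference of 0.15 (0.033 and 0.070 in array sets 1 and 2). Atf3, a stress-induced factor of the ATF family, differed by 0.67 ± 0.23 (SE, limma adjusted p = 0.46), by 0.33 in array set 1, and all but Nkx6.1 replicate 1 lay above the highest bGAL sample. Atf2, a constitutive factor activated by JNK and p38, differed by −0.92 ± 0.43 (SE, limma adjusted p = 0.53), by −0.58 without bGAL replicate 1 and by −0.27 in array set 2. Mafg, a small MAF protein gene, differed by 0.27 (limma adjusted p = 0.60), with 0.066 and −0.068 within array sets 1 and 2.

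In the list of 21 other early transcription factors, 14 were higher and 7 lower, and the median was 0.31. Within array sets 1 and 2 the median was smaller, 0.15 and 0.069. Id1, an inhibitor of basic helix-loop-helix factors, stood at 0.52, 1.34, 0.34, 0.54 and 0.55 in Nkx6.1 replicates 1 to 5, against −0.63, −0.35, −1.26, −0.48 and −0.34 in bGAL replicates 1 to 5. Its groups did not overlap. Its log2 difference was 1.27 ± 0.25 (SE, limma adjusted p = 0.13), and was 1.16 in array set 1 and 1.18 in array set 2. Its relative Id2 differed by 0.60 ± 0.22 (SE, limma adjusted p = 0.47), with 0.76 and 0.44 at its 2 probes. The nuclear receptor gene Nr4a1 differed by 0.82 ± 0.27 (SE, limma adjusted p = 0.42), and all but Nkx6.1 replicate 3 lay above the highest bGAL sample.

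Of 19 other early response proteins, 13 were higher and 6 lower, with a median of 0.10 (0 in array set 1, 0.19 in array set 2). A floored probe was present for 7 of the 19. Areg, a ligand of the EGF receptor, differed by 2.62 ± 0.99 (SE, limma adjusted p = 0.49), and Gem, a small GTPase that restrains calcium channels, by −2.60 ± 1.04 (SE, limma adjusted p = 0.50). Both rested on array set 1, where bGAL replicates 1, 2 and 3 stood between −4.94 and −2.07 for Areg and between 2.01 and 5.43 for Gem. Within array set 2 the differences were 0.22 and −0.45. The NF-κB inhibitor gene Nfkbia differed by −0.61 (limma adjusted p = 0.54), −0.036 within array set 1, where 4 of its 5 values were at the floor, and −0.71 within array set 2. It was −0.40 without Nkx6.1 replicate 2. Over these 3 lists together, 34 of 49 genes were higher and the median was 0.16, with 0.065 and 0.093 within array sets 1 and 2.

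The other MAP kinase phosphatases were mixed in direction. Of 5 other MAP kinase phosphatase genes tested, 2 were higher and 3 lower, with a median log2 difference of −0.16 (0.22 in array set 1, −0.49 in array set 2). Dusp5, a nuclear phosphatase of ERK, differed by 0.61 ± 0.30 (SE, limma adjusted p = 0.54), by 0.38 in array set 2, and only Nkx6.1 replicate 3 lay below the highest bGAL sample. Dusp6, the cytoplasmic phosphatase of ERK, differed by −0.74 ± 0.42 (SE, limma adjusted p = 0.56). It was 1.01 in Nkx6.1 replicate 1 and averaged 0.79 in the bGAL samples of array set 1, and averaged −0.52 in the Nkx6.1 samples and −0.53 in the bGAL sample of array set 2. Its value thus went with the array set. Dusp7, another ERK phosphatase, differed by −0.48 (limma adjusted p = 0.62), with several values at the floor, and by −0.12 without bGAL replicate 2. The difference between Dusp1 and these phosphatases was not tested.

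All 6 genes tested from the list of feedback inhibitors had a difference above 0, between 0.090 and 1.27. Their median was 0.57, with 0.44 and 0.55 within array sets 1 and 2. Of the 6, 0 were called by limma and 3 had a floored probe. Pebp1, which encodes the RAF kinase inhibitor protein, differed by 0.61 ± 0.24 (SE, limma adjusted p = 0.49). The EGR corepressor gene Nab2 differed by 1.05 (limma adjusted p = 0.51), with all its values in array set 1 at the floor and 2.37, 1.43 and 1.75 in Nkx6.1 replicates 3 to 5, so that its difference is no measured fold either and was 0 in array set 1. The ERK pathway inhibitor gene Spred1 differed by 1.27 ± 0.69 (SE, limma adjusted p = 0.55), with 2.32 within array set 1, 0.17 within array set 2 and 0.83 without bGAL replicate 5.

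Downstream, 5 of 13 known AP-1 targets were higher and 8 lower, with a median of −0.19 that was 0.29 and 0.12 within array sets 1 and 2. Mmp14, a membrane-bound matrix metalloprotease, stood at 0.50, 1.74, 0.24, 0.60 and 0.91 in Nkx6.1 replicates 1 to 5, against −0.92, −0.55, −0.24, −0.41 and −0.68 in bGAL replicates 1 to 5. The groups did not overlap, and the log2 difference was 1.36 ± 0.28 (SE, limma adjusted p = 0.15), with 1.10 and 1.28 within array sets 1 and 2. It passed the threshold with array weights and with quantile normalisation, under which 2.10% and 0.231% of all genes were called higher, and under no other alternative run. Over all alternatives its limma adjusted p was 0.022 to 1, with 0.93 with the array set as a term. The chemokine gene Ccl2 differed by 1.41 ± 0.48 (SE, limma adjusted p = 0.44), and by 2.61 in array set 1. Timp1, an inhibitor of matrix metalloproteases, differed by −0.84 ± 0.35 (SE, limma adjusted p = 0.51), and by −0.55 without Nkx6.1 replicate 2.

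Dusp1 is also known as a target of glucocorticoids and of heat stress. Of 4 glucocorticoid-induced genes tested, 2 were higher and 2 lower, with a median of −0.24 (0.087 and −0.11 in array sets 1 and 2). Klf9 differed by 0.69 ± 0.31 (SE, limma adjusted p = 0.52), and by 1.21 in array set 1. The difference of Tsc22d3, which encodes the glucocorticoid-induced leucine zipper protein, was −0.84 ± 0.40 (SE, limma adjusted p = 0.54). Its 2 probes differed by −1.22 and −0.454, the latter with floored values. The difference of the gene was −0.14 in array set 1 and −0.45 without Nkx6.1 replicate 2. The metallothionein gene Mt1 differed by 0.36 and the stress gene Ddit4 by −1.38 (limma adjusted p = 0.58 and 0.65). For Ddit4, 6 of the 10 values were the repeated value taken as the floor, and the rest lay below it. Mt1 was 0.18 without bGAL replicate 1, and 0.17 and −0.0026 in array sets 1 and 2. Ddit4 was −0.051 without Nkx6.1 replicate 5, and 0 and −0.21 in array sets 1 and 2. Of 11 heat shock genes, 4 were higher and 7 lower, with a median of −0.026 (0.053 and −0.049 in array sets 1 and 2). The small heat shock protein genes Cryab and Hspb1 did not overlap between the groups, and their differences were 0.65 ± 0.22 (SE, limma adjusted p = 0.43) and 0.79 ± 0.36 (SE, limma adjusted p = 0.52). Cryab was 0.40 in array set 1, and Hspb1 was 0.25 in array set 1 and 0.43 without Nkx6.1 replicate 2. The heat shock factor gene Hsf1 differed by 0.92 ± 0.31 (SE, limma adjusted p = 0.43).

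**Figure D4:**
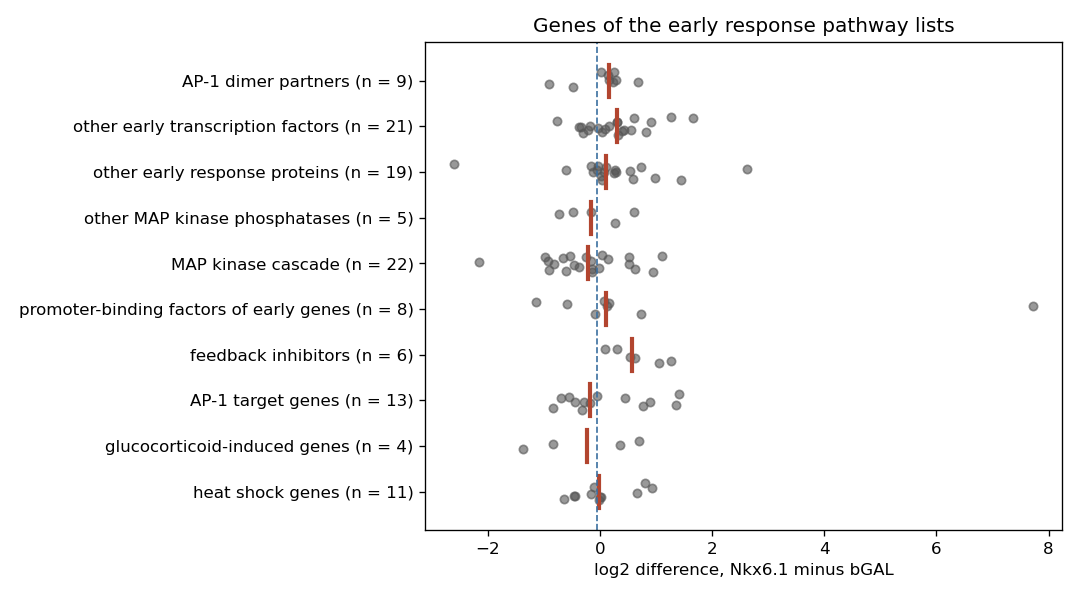
Log2 difference, Nkx6.1 minus bGAL (horizontal axis), of every tested gene (points) in each list, with the list median (red bar) and the median of all genes at −0.052 (dashed line). The 3 lists of early response genes have medians of 0.15, 0.31 and 0.10, and the point at 7.72 is Elk3, whose values in array set 1 were at the floor and whose difference is no measured fold.

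Markers of other cell types moved with the groups in one list. All 13 measured macrophage and leukocyte markers of 18 listed were lower, with a mean over the list of −0.61 to −0.41 in the Nkx6.1 samples and 0.11 to 0.68 in the bGAL samples, without overlap. Macrophages also express early response genes, and their part in the differences of Dusp1 and Fosl1 was not tested. The means of the other lists overlapped. They lay between −0.51 and 1.72 with Nkx6.1 and between −0.27 and 0.44 with bGAL for 14 endocrine markers, and between −0.28 and 1.30 against −0.18 and 0.17 for 7 acinar markers. For 4 duct markers they lay between −0.31 and 0.23 with Nkx6.1 and between −0.17 and 0.12 with bGAL, and for 8 stellate and fibroblast markers between −0.33 and 0.34 against −0.050 and 2.78. For 3 endothelial markers, which all had floored values, they lay between −0.92 and −0.011 with Nkx6.1 and between −0.92 and 5.17 with bGAL. A floored probe was also present for 4 of 7 acinar, 5 of 8 stellate and fibroblast and 1 of 4 duct markers. Among macrophage and leukocyte markers it was present for 4 of 13, and among endocrine markers for 0 of 14. The median difference of the macrophage list was −0.83, with −0.67 and −0.465 in array sets 1 and 2. It was 0.255 (−0.051 and 0.11) for endocrine, 0.59 (0.50 and 0.32) for acinar and 0.32 (0.47 and 0.16) for duct markers. For stellate and fibroblast markers it was −0.38 (−0.0021 and −0.36), and for endothelial markers −0.11 (0 and 0.077). Whether a defining marker was absent could not be read from centred values.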

How the data were processed

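Islet RNA of 10 samples was hybridised in Cy5 against a Cy3-labelled common rat reference RNA on 2-channel oligonucleotide arrays, from 500 ng of total RNA amplified and labelled per the labels' protocols. The deposited values are log2 ratios. Steps on background, dyes and filters were not given in the sources used here. Centring and base were found from the values: every one of 17744 probes with 10 values had a median within 0.001 of 0, and 108 values lay 13.29, the base 2 logarithm of 10000, above a repeated value of their probe. Across probes, which are no independent replicates, Pearson's r between arrays ran between −0.13 and 0.48.

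The direction was also looked at through probes with the same value (4 decimals) in 3 or more samples, taken as a floor. Their mean over array set 2 lay above the floor for 2 of 2 islet secretory probes and 0 of 4 probes of dividing cells, against 3974 of all 7209 floored probes with 10 values. For 3235 of the 7209 it lay below, so the repeated value is no lower bound of the ratios.

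Of 26962 probes besides 22 controls, 15807 had a single gene symbol, 12034 of them current in RefSeq (GRCr8), 3713 updated through a synonym and 60 kept. Array set 1 was defined by more than 20% missing probe values. Groups and replicate numbers came from the titles. Whether p-values measure more than the spread between these 10 samples rests on the isolations being independent, as the study's design text says, and precision is limited by the number of arrays.

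Differences, Nkx6.1 minus bGAL, were fitted with limma 3.58.1 in R 4.3.3 (lmFit, eBayes, two-sided), for probes and for genes (mean of probes) with at least 3 values per group, adjusted by Benjamini-Hochberg over all of them. The fit was tested on simulated data. Tables and plots were made with pandas 2.3.3, matplotlib 3.10.9 and numpy 2.4.6 under Python 3.11.15. Named from each list were the genes past the threshold and the 3 with the smallest p (all where at most 4 were measured), and for Dusp1 the 5 nearest profiles. Members, lists, array sets and alternatives were chosen with earlier results of these data known.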

Additional observations from a re-analysis of the deposited data

Results flagged for a closer look

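In 79 groups of 4 or 5 samples of the named genes, 13 samples stood apart by Dixon's test at the 95% level. The nominal rate of about 1 in 20 groups is no reference for this count. The groups share the same 10 arrays, and some hold repeated values. None was a value of Dusp1, Fosl1, Egr1 or Junb.

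Of the 13, 5 were Nkx6.1 replicate 2, the array with the widest spread. It stood at −1.13 for Atf2 (others −0.17 to 0.059), 1.34 for Id1 (others 0.34 to 0.55), 0.98 for Nr4a1 (others −0.021 to 0.24), 0.66 for Pebp1 (others −0.018 to 0.16) and 2.11 for Hspb1 (others 0.094 to 0.63). Nkx6.1 replicate 3 stood at −0.57 for Dusp5 (others 0.26 to 0.52).

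bGAL replicate 4, the only control array of set 2, stood apart where the other control arrays were at the floor, at 0.20 for Mapk13 (others −0.20), −0.68 for Elk3, 0.32 for Nab2 and −2.01 for Ddit4 (others at 0). With the other values equal, any different value is flagged, so nothing is read from these flags. bGAL replicate 5 stood at 0.14 for Nfkbia (others −0.011 to 0), bGAL replicate 1 at −0.28 for Hspb1 (others −0.13 to −0.094) and Nkx6.1 replicate 5 at −7.08 for Ddit4 (others −1.40 to 0).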

How the results depend on the processing

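The differences of Dusp1, Fosl1 and Egr1 stayed above 0 under every alternative run. Leaving out 1 sample gave 1.14 to 1.24 for Dusp1, 0.67 to 0.89 for Fosl1 and 0.37 to 0.69 for Egr1. Beyond 1 SD they moved with quantile normalisation (Dusp1 1.36) and within array set 1 (Dusp1 0.99, Fosl1 0.21); the cause was not tested. The median of the 3 early response lists together was 0.12 to 0.24 over leave-one-out fits and 0.065 to 0.26 otherwise.

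Counts past the threshold moved far more. Against 12 higher probes, 11 higher genes, 4 lower genes and 1 member, quantile normalisation gave 23 higher probes and 23 higher genes, and array weights 457 higher probes, 209 higher genes, 238 lower genes and 2 members. The array set term gave 0 higher probes, 3 higher genes, 0 lower genes and 0 members (842 probes at an unadjusted p under 0.05). Within array set 1 there were 56 higher probes, 22 higher genes, 13 lower genes and 0 members, and within array set 2 there were 0 higher probes, 2 higher genes, 16 lower genes and 0 members; there the lone sample is assumed to vary like the others. Leaving out 1 sample gave 2 to 36 higher probes, 2 to 29 higher genes, 0 to 11 lower genes and 0 to 1 members. The highest counts came without Nkx6.1 replicate 2 (36 probes) and, for lower genes, without bGAL replicate 4 (11).

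A replicate block on the sample numbers gave, in limma, 0 higher probes, 0 higher genes, 0 lower genes and 0 members (1413 probes and 811 genes at an unadjusted p under 0.05). Deviations of same-numbered samples correlated at −0.10 to 0.18, over 0.1 in 2 of 5 pairs, and 3 of 10 samples correlated best with their own number. Pairs with other numbers ran from −0.24 to 0.25. Whether same-numbered samples share an isolation could not be settled by this, since array set and group are largely aligned.

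Of 31 named list genes, 3 changed sign. Dusp6 was 0.12 with the array set term and 0.22 and 0.012 within array sets 1 and 2, Mafg −0.00124 with the term and −0.068 within array set 2, and Mt1 −0.00265 within array set 2. Under array weights or quantile normalisation 8 passed the threshold (Id1, Areg, Mapk13, Elk3, Pebp1, Nab2, Ccl2 and Mmp14), Mmp14 under both. Array weights called 2.10% of all genes higher and quantile normalisation 0.231%. The named genes were mostly picked for the smallest p in their lists, so nothing is read from the 8. Mapk13, Elk3 and Nab2 were at the floor throughout array set 1, and the Areg difference was 0.22 within array set 2. Medians of the phosphatase, AP-1 target, promoter-binding, glucocorticoid and heat shock lists changed sign under some alternatives, and those of the MAP kinase cascade and of the other early response proteins came to 0 within array set 1. Leaving out 1 sample turned the median of the phosphatases (0.14 without bGAL replicate 4), the AP-1 targets (0.00545 without Nkx6.1 replicate 3, 0.047 without bGAL replicate 3), the glucocorticoid list (0.15 without Nkx6.1 replicate 5) and the heat shock list (0.10 without Nkx6.1 replicate 2, 0.059 without bGAL replicate 3), and gave 0.090 to 0.28 for AP-1 partners, 0.087 to 0.38 for the early transcription factors and 0.076 to 0.23 for the early response proteins.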
